A study of Homo sapiens with 6 samples.

Results

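The genes studied are 10 genes of glycolysis, covering most steps from glucose uptake to lactate: SLC2A1, HK2, GPI, PFKM, ALDOA, TPI1, GAPDH, ENO1, PKM and LDHA. They were chosen by pathway from 20149 protein-coding genes of the annotation, and each was looked up by its symbol in the lists of bound promoters, enhancers and super-enhancers (for N-Myc, for JMJD6 and for both proteins) and in the common peaks that overlapped those regions. ChIP-Seq, the sequencing of DNA recovered with an immunoprecipitated chromatin protein, was performed in CHP-134 cells, a human neuroblastoma line of the peripheral nervous system, with 3 samples for an N-Myc antibody and 3 for a JMJD6 antibody. The labels give no genotype, treatment or time that differs between the 6 samples, which all come from this single line. JMJD6 chromatin was cross-linked with disuccinimidyl glutarate and formaldehyde and N-Myc chromatin with formaldehyde alone, so that a difference between the antibodies and a difference between the protocols cannot be told apart. The lists hold positions of peaks present in all 3 samples of an antibody, without heights, scores or read counts, so depth is unknown for each peak and no spread between samples can be given.

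Glycolysis converts glucose to pyruvate in the cytosol with a small yield of ATP, and lactate dehydrogenase reduces pyruvate to lactate, which regenerates the NAD+ that the pathway consumes. Many tumor cells keep a high flux from glucose to lactate even when oxygen is present. N-Myc, encoded by MYCN, is a transcription factor that binds E-boxes as a heterodimer with MAX, and glycolytic enzyme genes are textbook targets of the Myc family. JMJD6 is a jumonji domain protein that has been described as a histone arginine demethylase. The question asked of the lists was which of these genes carried an N-Myc peak, where the peak sat and whether JMJD6 was listed at the same place.

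N-Myc was listed at the promoter of 6 of the 10 genes, namely PFKM, ALDOA, GAPDH, ENO1, PKM and LDHA, while the promoters of SLC2A1, HK2, GPI and TPI1 were not listed. A promoter here is the region 1 kb on each side of a RefSeq start site. The 6 genes were 60% of the members (exact binomial 95% interval 26.2 to 87.8%), against 17.5% of all protein-coding genes (3525 of 20149). A common N-Myc peak lay in the named promoter of 5 of them, all but PFKM, whereas 84 of the 3525 genes had none. The 20149 genes include those on chromosome X, for which no promoter row exists. All 10 genes were named beside an N-Myc-bound enhancer (interval 69.2 to 100%), against 32.4% of all genes (6519 of 20149) named beside an enhancer or super-enhancer. None was named beside an N-Myc-bound super-enhancer, against 1.31% of all genes. JMJD6 was listed at none of the 10 promoters (interval 0 to 30.8%), against 0.625% of all genes, and the list of promoters bound by both proteins likewise named none, against 0.298% of all genes. TPI1 alone was named beside a JMJD6-bound enhancer, or 10% of the members (interval 0.253 to 44.5%), against 0.973% of all genes. With a background this low, the absence of JMJD6 from 10 promoters is not a result about glycolysis genes. No test was made, since genes of a pathway are not replicates, and the intervals cover counting error only.

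**Figure D1:**
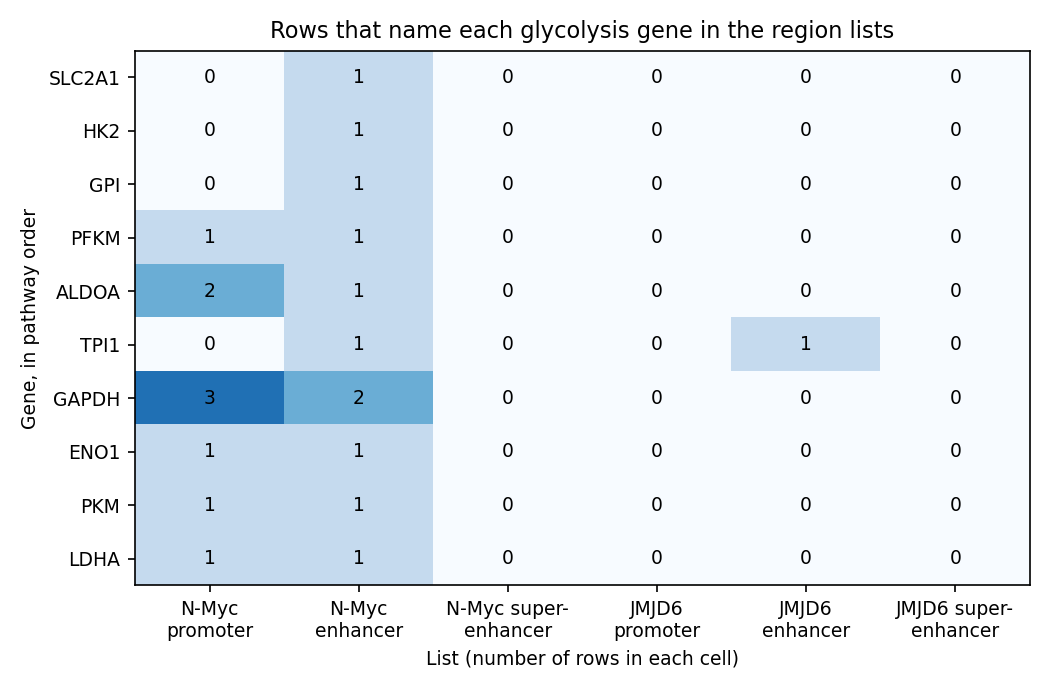
Number of rows that name each of the 10 glycolysis genes (vertical axis, in pathway order) in each list (horizontal axis); each cell holds the count. PFKM, ALDOA, GAPDH, ENO1, PKM and LDHA have N-Myc promoter rows, whereas SLC2A1, HK2, GPI and TPI1 have none. The only JMJD6 row is an enhancer of TPI1.

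The count of 6 promoters depended on the start site used. Within 1 kb of any annotated start site, a common N-Myc peak was present for 6 genes, but HK2 then replaced PFKM, against 20.9% of all genes. Within 1 kb of the main start site, that of the MANE Select transcript, a peak was present for 3 genes, GAPDH, ENO1 and LDHA, or 30%, against 17.8% of all genes with such a transcript (3361 of 18922). The peaks of ALDOA, PKM and HK2 began 1099, 1892 and 1072 bp from their main start sites and lay closer to other annotated start sites. All coordinates are 1-based on GRCh37, and distances are counted in the direction of the gene.

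**Figure D2:**
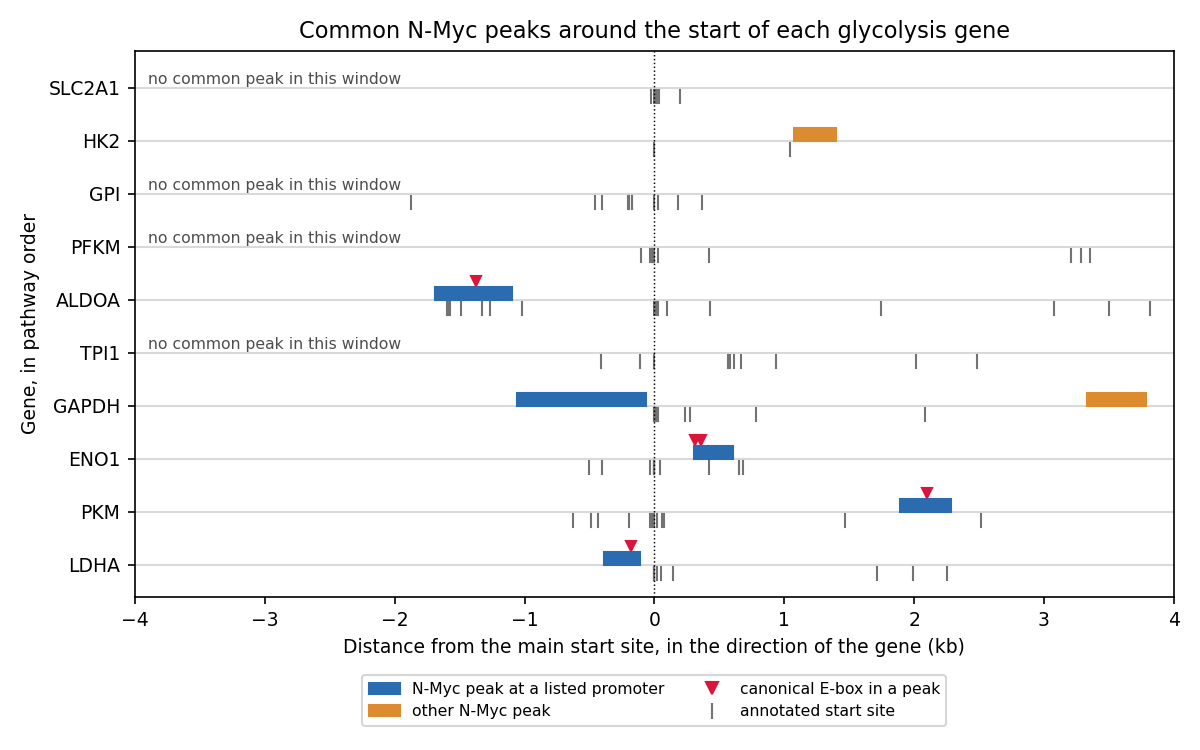
Common N-Myc peaks (boxes), canonical E-boxes in them (triangles) and annotated start sites (ticks) within 4 kb of the main start site of each gene, with the distance in kb in the direction of the gene on the horizontal axis. The LDHA and GAPDH peaks lie just upstream of the main start, the ENO1 peak 306 to 607 bp downstream, and the ALDOA and PKM peaks beside other start sites.

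The sequence under these peaks was examined for the canonical E-box CACGTG, whose sequence reads the same on both strands. The 4 promoter peaks that contain it are shown by the stretch around it, on the strand of the gene and with the E-box in capitals. The ALDOA stretch is chr16:30075694-30075723 on the plus strand, limited to the E-box and its flanks because the peak lies in transcribed untranslated sequence. The ENO1 stretch is chr1:8938327-8938439 on the minus strand and holds a pair of E-boxes. The PKM stretch is chr15:72521285-72521584 on the minus strand, the middle of the peak in an intron, and the LDHA stretch is the whole peak, chr11:18415721-18416000 on the plus strand.
ALDOA: tggcagggaggcCACGTGatccgagtcccc
ENO1: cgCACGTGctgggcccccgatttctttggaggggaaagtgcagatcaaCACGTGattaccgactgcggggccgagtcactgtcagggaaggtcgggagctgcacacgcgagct
PKM: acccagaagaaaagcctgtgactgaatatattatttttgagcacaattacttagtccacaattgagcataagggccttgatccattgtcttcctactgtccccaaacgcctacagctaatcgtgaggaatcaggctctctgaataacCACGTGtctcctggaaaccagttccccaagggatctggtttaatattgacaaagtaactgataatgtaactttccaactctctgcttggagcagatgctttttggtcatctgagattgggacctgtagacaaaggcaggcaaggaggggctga
LDHA: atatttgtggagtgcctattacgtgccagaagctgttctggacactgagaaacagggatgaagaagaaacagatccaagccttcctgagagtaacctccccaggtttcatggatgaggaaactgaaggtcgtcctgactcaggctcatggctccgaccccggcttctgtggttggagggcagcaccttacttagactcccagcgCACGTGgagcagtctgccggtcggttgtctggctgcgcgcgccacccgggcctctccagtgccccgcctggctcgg

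Of the 5 N-Myc peaks at listed promoters of the glycolysis genes, 4 held CACGTG, against 36.9% of all N-Myc peaks at listed promoters (1309 of 3550, interval 35.3 to 38.5%). The pair in the ENO1 peak is shared by 6.59% of promoter peaks, that is, those with at least 2 copies. An E-box lay with all its bases in the window reaching 100 bp to either side of the centre in ALDOA, PKM and LDHA, at 20, 7 and 67 bp from the centre, as it did in 23.1% of promoter peaks. The nearer ENO1 E-box, centred 100 bp away, straddled the edge of that window and was not counted. The noncanonical E-boxes were searched on both strands. Of these, CACGCG occurred in 2 member peaks and 29.2% of promoter peaks. CACGAG was found in 1 member peak and in 25.2% of promoter peaks. Neither CATGCG, present in 19% of promoter peaks, nor the form CATGTG, present in 22.5%, was found in a member peak. The member peaks with a noncanonical form were those of GAPDH and ENO1, against 66.4% of promoter peaks with any of these forms. Each of the 5 member peaks thus held a canonical or noncanonical E-box, as 81.6% of promoter peaks did. The shorter ACGTG, which is part of CACGTG, occurred in all 5 and in 58.9% of promoter peaks. GGGCGG, the core of GC boxes bound by Sp1, occurred in 2 member peaks and 57.6% of promoter peaks. A match describes the sequence and does not show that the site was bound.

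The motifs were also counted in the 300 bases around the start sites, whether or not a peak lay there. Among RefSeq promoters spanning 250 bases before to 50 after the start (GRCh38.p14), 8.9% of 15318 protein-coding promoters held CACGTG. Of the 10 glycolysis genes, all of which matched by symbol, GAPDH and LDHA did. The start used there can differ from the main start. The only CACGTG in the listed promoter rows of GAPDH lay 668 bp downstream of its main start, so its window was not that of the main start. ACGTG was present in 5 of these windows, those of HK2, GPI, ALDOA, GAPDH and LDHA, against 23.8% of protein-coding promoters. A noncanonical E-box was present in 2, those of PKM and LDHA, against 33.2% of protein-coding promoters.

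LDHA encodes the lactate dehydrogenase subunit that predominates in muscle and many tumors. The gene (ENSG00000134333) lies on chr11:18416107-18429972 on the plus strand, and its promoter row spans chr11:18414935-18416935. The single N-Myc peak in it was 280 bp wide and spanned positions -389 to -110 relative to the main start, just outside the gene. Its E-box was centred at -183 bp. The peak was among the narrowest at promoters, at the 9.89 percentile of 3550 widths, and its GC content of 58.6% was near the median of 58.3%.

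ENO1 encodes alpha-enolase, which forms phosphoenolpyruvate (ENSG00000074800, chr1:8921059-8939249, minus strand). Its peak, chr1:8938138-8938439, was 302 bp wide, at the 14.7 width percentile, and ran from 306 to 607 bp downstream of the main start, across 1 further annotated start site and part of an untranslated exon. The E-boxes were centred 311 and 357 bp downstream of the main start, 146 and 100 bp from the peak centre. The 2 kb promoter row as a whole held 5 copies of CACGTG, the highest number among the 9 promoter rows of these genes, where the others held 1 or 2.

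PKM encodes pyruvate kinase, the enzyme of the last ATP-yielding step, and alternative splicing gives its M1 and M2 forms. The gene (ENSG00000067225) is on chr15:72491370-72524160 on the minus strand. Its promoter row, chr15:72521063-72523063, was centred on an alternative start site 1468 bp downstream of the main start. The peak, chr15:72521244-72521639, was 396 bp wide, lay in an intron with its centre 2090 bp downstream of the main start and 424 bp from the nearest annotated start. Its E-box sat 7 bp from the centre. The GC content was 43.9%, at the 2.39 percentile of promoter peaks, so the PKM peak was AT-rich relative to other peaks called promoter peaks.

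ALDOA encodes the aldolase that splits fructose 1,6-bisphosphate in most tissues, and its transcripts begin at several start sites. The gene (ENSG00000149925) lies on chr16:30075485-30081778 on the plus strand. A pair of overlapping promoter rows, centred at -1482 and -1264 bp from the main start, shared the same peak, chr16:30075394-30075982. It was 589 bp wide, at the 72.1 width percentile, and covered 6 annotated start sites, the nearest 67 bp from its centre. Of its 589 bases, 564 were annotated as untranslated exon, counted over every annotated gene there. Not all of these belong to ALDOA, since the peak began before the annotated gene. The E-box lay 20 bp from the centre.

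GAPDH encodes glyceraldehyde-3-phosphate dehydrogenase, the step that reduces NAD+ (ENSG00000111640, chr12:6643678-6647540, plus strand). It had the widest member peak, 992 bp at chr12:6642628-6643619, at the 95.7 percentile of promoter peaks, running from -1055 to -64 bp relative to the main start. The same peak accounted for all 3 promoter rows of the gene. It held no canonical E-box, but 1 CACGCG on the opposite strand at -419 bp. Its GC content was 65.5% (percentile 93.2), with 3 copies of GGGCGG. The only CACGTG in the promoter rows lay in an intron 668 bp downstream of the main start, outside the peak. Both sites are shown on the plus strand, with the motif in capitals, at chr12:6643250-6643279 (in the peak) and chr12:6644337-6644366 (outside it).
GAPDH peak: gagggggcaggcCGCGTGcagccgcgagcg
GAPDH intron: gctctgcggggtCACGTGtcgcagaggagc
Another N-Myc peak of 450 bp, chr12:6647017-6647466, lay in the 3' part of the gene, 3.56 kb downstream of the main start. It held no CACGTG and overlapped no listed region that names GAPDH. Regions that name only other genes were not searched for this peak.

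PFKM encodes the muscle form of phosphofructokinase, the main controlled step of the pathway. The gene (ENSG00000152556) lies on chr12:48498922-48540187 on the plus strand. Its promoter row (chr12:48512012-48514012, centred at -135 bp from the main start) and its enhancer row (chr12:48498600-48514214, 15615 bp) were both listed for N-Myc, yet neither contained a peak of the common N-Myc list. The nearest common peak was 359 kb from the promoter row and 346 kb from the nearest start site of the gene, which is farther than for 88.2% of all genes. A promoter row without a common peak was uncommon: 131 of 5114 rows (2.56%) and 84 of 3525 genes (2.38%) had none. Among those 84 genes, the distance to the nearest peak was at least that of PFKM for 5, PFKM included. The listing of PFKM therefore has no peak behind it in these files, and the reason was not tested.

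**Figure D3:**
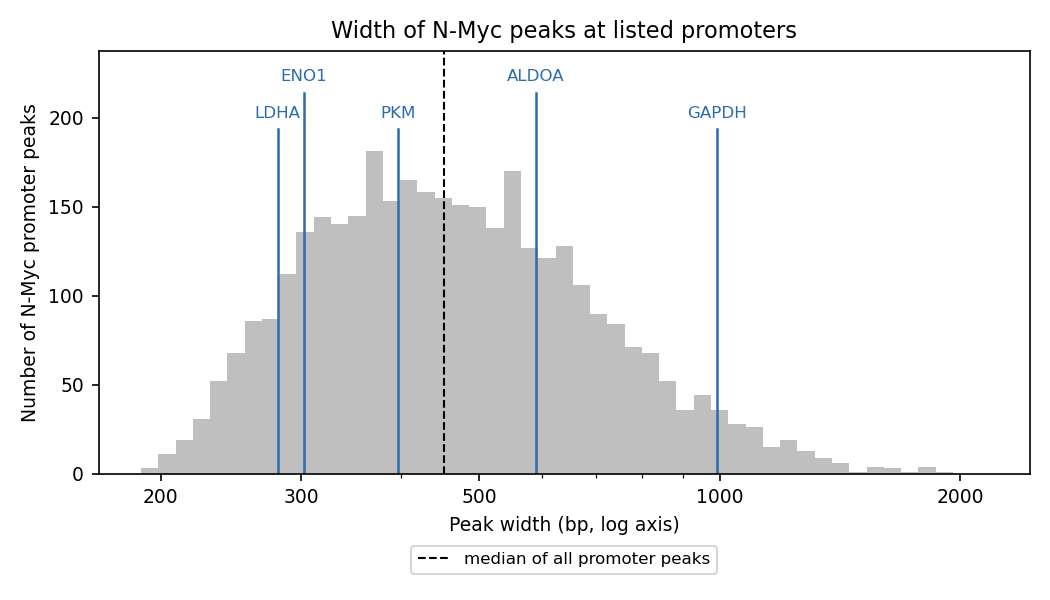
Distribution of the width of 3550 N-Myc peaks at listed promoters (grey, bp on a log axis), with the 5 peaks of glycolysis genes as vertical lines. LDHA (280 bp), ENO1 (302 bp) and PKM (396 bp) lie below the median of 452 bp, ALDOA (589 bp) and GAPDH (992 bp) above it.

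Taking the 5 promoter peaks as a group, the median width was 396 bp (range 280 to 992), against 452 bp for all promoter peaks (quartiles 343 and 612). The median distance from the peak centre to the nearest annotated start of the gene was 247 bp (range 38 to 555), against 132.5 bp (quartiles 43 and 351.75) over 3474 promoter peaks. The median GC content was 58.6% (range 43.9 to 65.5), against 58.3%. ALDOA and GAPDH were the 2 genes whose peak was at least as wide as the median of all N-Myc peaks, 418 bp. None of the 5 overlapped a JMJD6 peak.

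The genes of the upper pathway without a listed promoter were not alike. HK2 encodes the hexokinase isozyme that is raised in many tumors (ENSG00000159399, chr2:75061254-75120486, plus strand). A peak of 326 bp, chr2:75062326-75062651, lay in the gene with its near edge 1072 bp downstream of the main start and 29 bp from an alternative start site. It contained no CACGTG, 1 CACGAG on the opposite strand and 3 copies of GGGCGG, and partly covered untranslated exon. A further peak of 671 bp, chr2:75089591-75090261, lay in an intron 28.67 kb downstream of the main start and held 2 copies of CATGTG. HK2 thus had N-Myc peaks inside the gene although it has no promoter row.

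SLC2A1, the glucose transporter GLUT1 (ENSG00000117394, chr1:43391024-43424564, minus strand), had its nearest N-Myc peak 83.3 kb from a start site. GPI, the isomerase that converts glucose 6-phosphate to fructose 6-phosphate (ENSG00000105220, chr19:34850385-34893318, plus strand), had its nearest peak at 6.83 kb, beyond the 3' end of the gene. That gap runs from an alternative start site 32087 bp downstream of the main start. TPI1, which interconverts the triose phosphates (ENSG00000111669, chr12:6976283-6980112, plus strand), had its nearest peak at 14.3 kb. These distances, each from the nearest annotated start, lie on both sides of the median over all protein-coding genes, 44.5 kb. From the main start the gaps were 113 kb for SLC2A1, 38.9 kb for GPI and 14.7 kb for TPI1. The median over all genes with a main start was 58.5 kb.

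**Figure D4:**
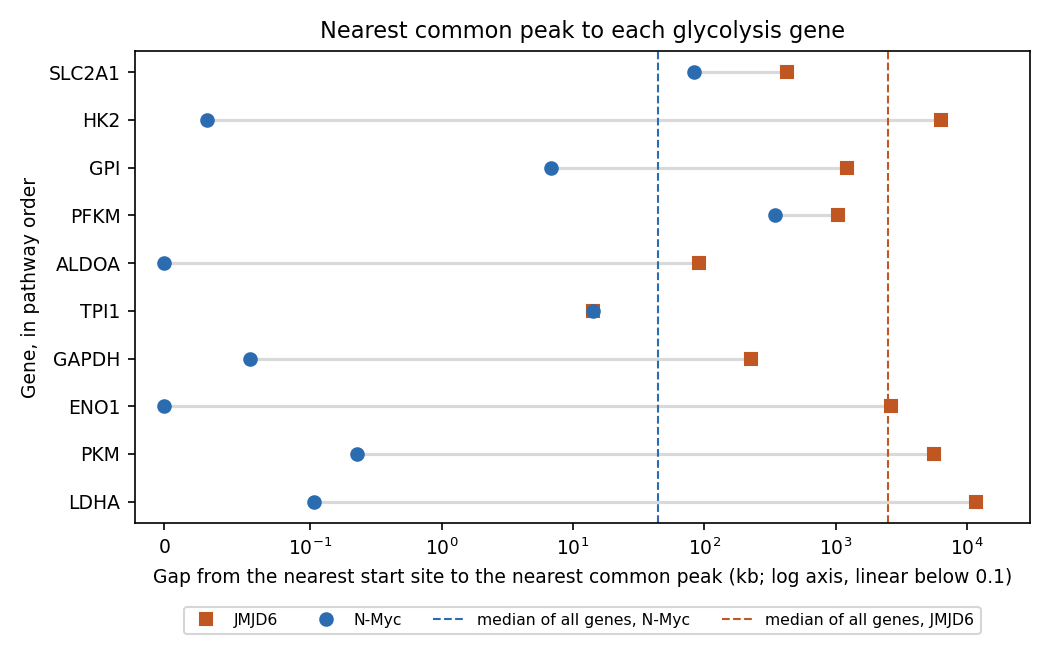
Gap from the nearest annotated start site of each gene to the nearest common N-Myc peak (circles) and JMJD6 peak (squares), in kb on a log axis that is linear below 0.1 kb, with the medians of all genes as dashed lines. The N-Myc gap is under 0.3 kb for HK2, ALDOA, GAPDH, ENO1, PKM and LDHA, and the JMJD6 gap is shortest for TPI1, where both symbols coincide at 14.3 kb.

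The JMJD6 peaks were far from most of the genes. The gap to the nearest JMJD6 peak was 14.3 kb for TPI1, 90.5 kb for ALDOA, 227 kb for GAPDH and 425 kb for SLC2A1, and it exceeded 1000 kb for the other members, up to 11775 kb for LDHA. The median over the members was 1131 kb, against 2511 kb over all genes, of which 0.844% had a JMJD6 peak within 1 kb. The corresponding N-Myc medians were 0.167 kb and 44.5 kb. These gaps run from the nearest of all annotated starts of a gene. From the main start alone, the N-Myc medians were 1.5 kb for the members and 58.5 kb for all genes with a main start. The JMJD6 list is much shorter than the N-Myc list, with 561 against 10172 common peaks, so gaps to N-Myc and to JMJD6 peaks cannot be compared directly.

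Every N-Myc-bound enhancer row that named a glycolysis gene overlapped a listed N-Myc promoter. Enhancer rows carry the nearest genes, so a row may sit at the start of a neighboring gene. Of the 11 rows of the members, 6 overlapped the promoter of the gene itself (PFKM, ALDOA, GAPDH, ENO1, PKM and LDHA) and 5 overlapped only the promoter of another gene. Over all genes, 2388 of 9094 pairs of gene and row were on the gene's own promoter, 2524 (27.8%) only on another gene's and 4182 on none. The methods describe subtraction of 1 kb around start sites before enhancers were stitched, but these rows still cover promoters. Without rows that overlap a listed promoter, the count of members with an enhancer fell from 10 to 0. The rows were nonetheless longer than the promoters they overlapped in several cases, such as PFKM (15615 bp), ALDOA (14038 bp) and PKM (5109 bp), against 2001 bp for a promoter row.

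For the 4 genes with an enhancer row but no promoter row, each row lay on a neighbor's promoter, as was the case for 38.3% of such genes overall (1505 of 3927). The row of SLC2A1, chr1:43637330-43638030, was 213 kb away at EBNA1BP2, which encodes a nucleolar protein, and its peak of 607 bp held 1 CACGTG. The row of HK2, chr2:75185286-75185583, was 124 kb away at POLE4, which encodes a DNA polymerase epsilon subunit, with 1 CACGTG 10 bp from the centre of a 341 bp peak. The E-boxes of both are shown with their flanks, at chr1:43637902-43637931 on the minus strand and chr2:75185425-75185454 on the plus strand. Their rows overlapped listed promoters of neighbors, and which gene the sites act on was not tested.
SLC2A1 row: gcgattcggtggCACGTGgagccacggcgt
HK2 row: gcctccctcggaCACGTGccctcgttagcc
The row of GPI, chr19:34895030-34895245, was 39.5 kb from its start at PDCD2L and had a 324 bp peak with 2 copies of CACGCG and no CACGTG. The upstream row of GAPDH, chr12:6601625-6604194, was 40.2 kb away at MRPL51 and NCAPD2, a mitochondrial ribosomal protein and a condensin subunit, with peaks of 390 and 447 bp and no CACGTG.

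TPI1 was the sole glycolysis gene named in a JMJD6 list. Its enhancer row, chr12:6960653-6963162 (2510 bp), was in the N-Myc, JMJD6 and shared lists with the same coordinates. The peak in it, chr12:6961329-6961984, was 656 bp wide, was present in the lists of both proteins and was centred in an intron of USP5, a deubiquitinase gene, at -15.04 kb from the main TPI1 start. The row overlapped listed N-Myc promoters of USP5 and CDCA3. The shared peak held no CACGTG and 1 CACGAG, on the opposite strand, shown on the plus strand at chr12:6961818-6961847.
TPI1 row: gggttttgtagtCTCGTGtaggagtgatgg
The combination of lists that names TPI1 was found for 55 protein-coding genes (0.273%).

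The other genes of the pathway, 48 in number and covering isozymes, transport and connected steps, were looked up in the same way. N-Myc was listed at 11 of their promoters, or 22.9% (interval 12 to 37.3%), against 17.5% of all genes, a difference that was not tested. JMJD6 was listed at none (interval 0 to 7.4%), against 0.625% of all genes. No N-Myc promoter was listed for HK1, HK3 or HKDC1 among the hexokinases, PFKL or PFKP among the phosphofructokinases, ALDOC among the aldolases, GAPDHS, ENO2, ENO3 or PKLR in the lower steps, or LDHC, the testis form of lactate dehydrogenase. LDHB, the subunit that predominates in heart, was listed, with a 675 bp peak that held 1 CACGTG. Of the hexose transporters, SLC2A4 (the insulin-responsive GLUT4) was listed and SLC2A2 and SLC2A3 were not. SLC2A2 was the only gene of the 48 named beside an N-Myc-bound super-enhancer, or 2.08% (interval 0.0527 to 11.1%), against 1.31% of all genes.

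The groups of the 48 genes are small, were not tested against each other or against the 17.5% of all genes, and some include chromosome X genes, for which no promoter row exists. In hexose and lactate transport 4 of 7 genes were listed (interval 18.4 to 90.1%): SLC2A4, the lactate transporters SLC16A1 and SLC16A7, and BSG, which encodes basigin, a chaperone of the SLC16A1 protein. For pyruvate dehydrogenase and its kinases, 5 of 8 were listed (interval 24.5 to 91.5%): PDHB, DLAT and DLD, which encode subunits of the complex, and PDK1 and PDK2, kinases that inhibit it. The 8 further genes of the lower steps, the 6 genes of the PFKFB family, TIGAR and BPGM and the 5 gluconeogenesis genes had no listed promoter. In the pentose phosphate pathway 1 of 4 was listed, PGD. The set of lists shared by the 6 members with a promoter row (N-Myc promoter and N-Myc enhancer) was also that of 9 of the 48 genes, SLC16A1, SLC16A7, BSG, LDHB, PDHB, DLAT, DLD, PDK1 and PGD, and of 12% of all genes.

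**Figure D5:**
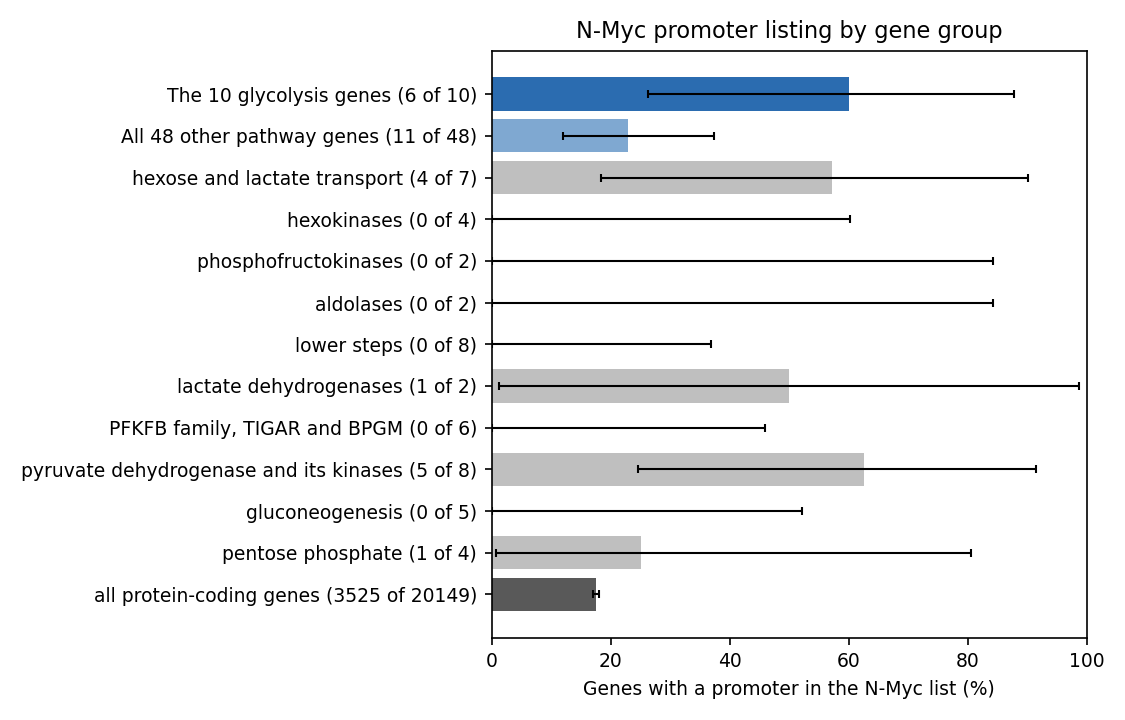
Share of genes with a promoter in the N-Myc list (%, horizontal axis, from 0) for the 10 glycolysis genes, the 48 other pathway genes, their groups and all protein-coding genes; lines show exact 95% intervals, for counting error alone. The groups hold 2 to 8 genes, so their intervals are wide, and the 10 genes stand at 60% against 17.5% of all genes. The 60% includes PFKM, whose promoter row held no common peak.

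Genes on chromosome X could not be assessed by promoter rows, since the N-Myc promoter list held none from that chromosome although 120 N-Myc peaks and 70 N-Myc enhancer or super-enhancer rows lay on it. This affects PGK1, PFKFB1, PDHA1 and PDK3. PGK1 encodes phosphoglycerate kinase, a step between GAPDH and ENO1. A 676 bp peak with 3 copies of CACGTG, chrX:77165657-77166332, covered an annotated start site of PGK1, but that start lies far upstream, and the gap from the main PGK1 start to the nearest N-Myc peak was 193 kb. The gap from the main start was 464 kb for PFKFB1, 9.58 kb for PDHA1 and 98.3 kb for PDK3, so none of these genes had a common N-Myc peak within 1 kb of its main start.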

How the data were processed

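ChIP-Seq was done in CHP-134 cells with antibodies against N-Myc or JMJD6 (2 groups, 3 replicates each, by the antibody in the labels). According to the methods and the submitters' processing notes, the authors aligned reads with BWA, called peaks against input with MACS2 (version 2.1.1.20160309, q-value maximum 0.05) on hg19 and kept peaks found in all 3 replicates. Promoters were 1 kb on each side of RefSeq start sites, enhancers came from ROSE on H3K27ac peaks stitched within 12.5 kb, and nearest genes came from GREAT. The 12 deposited lists hold positions in bp and gene symbols only, with no column per sample and no height, count or score.

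Symbols were matched to GENCODE version 44 lifted to GRCh37 (4028 of 4229 promoter symbols). Of 4891 N-Myc promoter rows tested, 4304 (88%) were centred within 100 bp of an annotated start of their gene. A peak belonged to a region when they overlapped by at least 1 bp. A share has an exact Clopper-Pearson 95% interval for counting error only, and no test was made. Motifs were counted on both strands of the reference. All 10 members were named, and of the 48 other pathway genes those whose isozyme or step partner is a member, those on chromosome X, those in a JMJD6 list and those named by the same lists as most members. Genes shown as group examples beyond that were chosen after their values were seen. A few genes that the rule covers are not reported here. The members and lists were chosen with earlier results of these data known. Alternatives covered the region, the start site, peak width, overlap and motif. Counting was tested on simulated data. Python 3.11.15, numpy 2.4.6, SciPy 1.17.1, pysam 0.24.0 and matplotlib 3.10.9 were used.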

Additional observations from a re-analysis of the deposited data

How the results depend on the processing

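Of 22 alternatives, 18 left the value within the range set for no change and 4 moved it. That range was wide: 3525 genes becoming 4208, and 11 pathway genes becoming 14, were within it. Some of the 18 could not move the value. Leaving out chromosome X changes no promoter count, because the promoter list holds no row from it. Taking the widest peak of each member changes nothing where a member has 1 promoter peak. With peaks at least as wide as the median of 418 bp, the members with an N-Myc promoter were 2 in place of 6. With a common peak within 1 kb of the main start, an alternative chosen after seeing the data, they were 3. With enhancer rows that overlap no listed N-Myc promoter, members at an enhancer were 0 in place of 10. Measured from the centre of the nearest promoter row, the median distance of member peaks was 447 bp in place of 247 bp. Replicates could not be left out one at a time and peak width had to stand in for a stricter threshold, because the lists hold neither samples nor scores. No paired analysis was possible because the lists have no column per replicate.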
